A study of Mus musculus with 5 samples.

Results

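The 39 genes described here code for chromatin regulators of mouse embryonic stem cells: the Polycomb complexes, SWI/SNF and other remodellers, the histone deacetylase complexes, the H3K9 silencing proteins, the histone acetyltransferases, and the DNA-binding proteins HMGA and CTCF. They were chosen by name, with earlier results of these data known, and they are 39 of the 32285 genes listed for each library. All 39 were found and had UMIs (unique molecular identifiers, each counted as 1 captured RNA molecule) in all 5 libraries. By complex there were 6 members in PRC2, 6 in PRC1, 3 HP1 proteins, 6 in SWI/SNF, 2 ISWI and CHD1 remodellers, 6 in NuRD, SIN3 and LSD1, 4 in H3K9 silencing, 3 in the group of acetyltransferases and UTX, and 3 in the group of HMGA and CTCF.

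The libraries came from REX-1 RFP cells, an embryonic stem cell line in which the Rex1 promoter drives a red fluorescent protein, profiled by single-cell RNA sequencing with 1 library per condition. All cells were first grown with LIF, the cytokine that maintains mouse stem cell self-renewal, and then spent 72 h in their condition. NS and the sorbitol conditions contained LIF and ND lacked it. Sorbitol, a polyol used to make culture medium hyperosmotic, was given at 200, 250 or 300 mM. The labels do not spell out NS and ND, and they do not say whether the line is a single clone. Because each condition is 1 library, condition and library cannot be told apart, no difference has a replicate check, and every interval below covers counting error only.

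Each library held 10000 barcodes, and 9240 to 10000 were kept after a filter on genes and mitochondrial UMIs. How the 10000 were selected is not stated in the labels or file headers, and this bears on every value per barcode below. The kept barcodes held 22158653 UMIs in NS and 7906116 to 9766705 in the other libraries, with a median of 2135 UMIs per barcode in NS and 801 to 939 elsewhere. Any pair of libraries shared 34 to 54 barcode sequences. Levels are given as CPM, the UMIs of a gene scaled to the library's total. All 10 pluripotency markers had UMIs in every library, and their summed level lay between 5827 and 8995 CPM. Pou5f1, which codes for OCT4, stood at 248 CPM in NS, 249 in ND and 185, 240.0 and 170.3 at the 3 sorbitol doses. Zfp42, which codes for REX1, stood at 562, 524, 521, 778 and 879 CPM in the same order, and Sox2 at 359, 514, 630.2, 674 and 682 CPM. The 9 fibroblast or feeder markers summed to between 34.9 and 58.0 CPM. Of them 5 or 6 had UMIs in each library and 1 to 3 reached 5 CPM, while Col3a1 and Postn were at 0 in every library. The 10 primitive endoderm markers summed to 35.9 CPM in NS, 18.3 in ND and 51.4 to 73.3 with sorbitol, and the 9 trophoblast markers to 159 CPM in NS, 183 in ND and 203 to 265 with sorbitol. Their part in the member values was not tested.

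Polycomb proteins silence developmental genes: PRC2 methylates histone H3 at lysine 27, and PRC1 ubiquitinates histone H2A and compacts chromatin. SWI/SNF, ISWI and CHD proteins use ATP to move or evict nucleosomes, while NuRD and SIN3 remove histone acetylation and the H3K9 methyltransferases silence retroelements and heterochromatin. Embryonic stem cells are known for keeping many developmental genes under Polycomb control, and most of these complexes are needed for normal differentiation.

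Summed over the members, the level reached 5477 CPM in NS and 6918 in ND, and it was 6864, 7674 and 8186 CPM at 200, 250 and 300 mM sorbitol. In the sorbitol libraries Hmga2 and several PRC2, NuRD and SIN3 genes stood higher than in NS, by up to 10.5-fold for Hmga2, and Hmga1 stood 2.26-fold to 3.31-fold lower. A member counted as higher or lower when its CPM differed at least 1.5-fold, and the same count was made over all genes that reached 5 CPM in 1 or both libraries compared. At 300 mM sorbitol, 18 of 39 members were higher than in NS and 1 was lower, against 32.8% higher and 10.6% lower over all 10671 genes. The members' median log2 ratio was 0.55, and that of all genes was 0.29. At 250 mM, 15 members were higher and 1 was lower, where 26.5% and 8.69% of all genes were, and at 200 mM 13 were higher and 2 were lower, where 26.8% and 11.0% were. In ND, 2 members were higher and 0 were lower, against 10.0% and 7.07% of all genes, and the members' median log2 ratio was 0.33, beside 0.08 for all genes. By some amount, 35 of the 39 members lay above NS in ND, as did 5969 of all 10210 genes.

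CPM depends on what else the library contains, so the ratios were also scaled to the median gene (median-of-ratios size factors), which moved every log2 ratio to NS by -0.085 in ND and by -0.16, -0.20 and -0.25 at the 3 doses. On that scale 15 members were higher and 2 lower at 300 mM, where 20.6% and 18.4% of all genes were. At 250 mM 7 members were higher and 1 lower, beside 16.8% and 14.7% of all genes, and at 200 mM 7 were higher and 4 lower, beside 19.4% and 16.1%. In ND the counts were 2 and 0, beside 7.32% and 9.29%, with 33 members above NS and a median log2 ratio of 0.25. The members' share of higher calls was thus close to the background at 200 and 250 mM on this scale, and further from it at 300 mM. Mitochondrial transcripts made up 3.98% of UMIs in NS, 4.98% in ND and 5.61% to 6.13% with sorbitol, while ribosomal protein transcripts made up 28.4%, 25.4% and 21.3% to 25.3%. With both kinds left out of the total, 15 members were higher and 2 lower at 300 mM. The share of all genes was not counted with that total, so these 2 counts have no background.

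**Figure D1:**
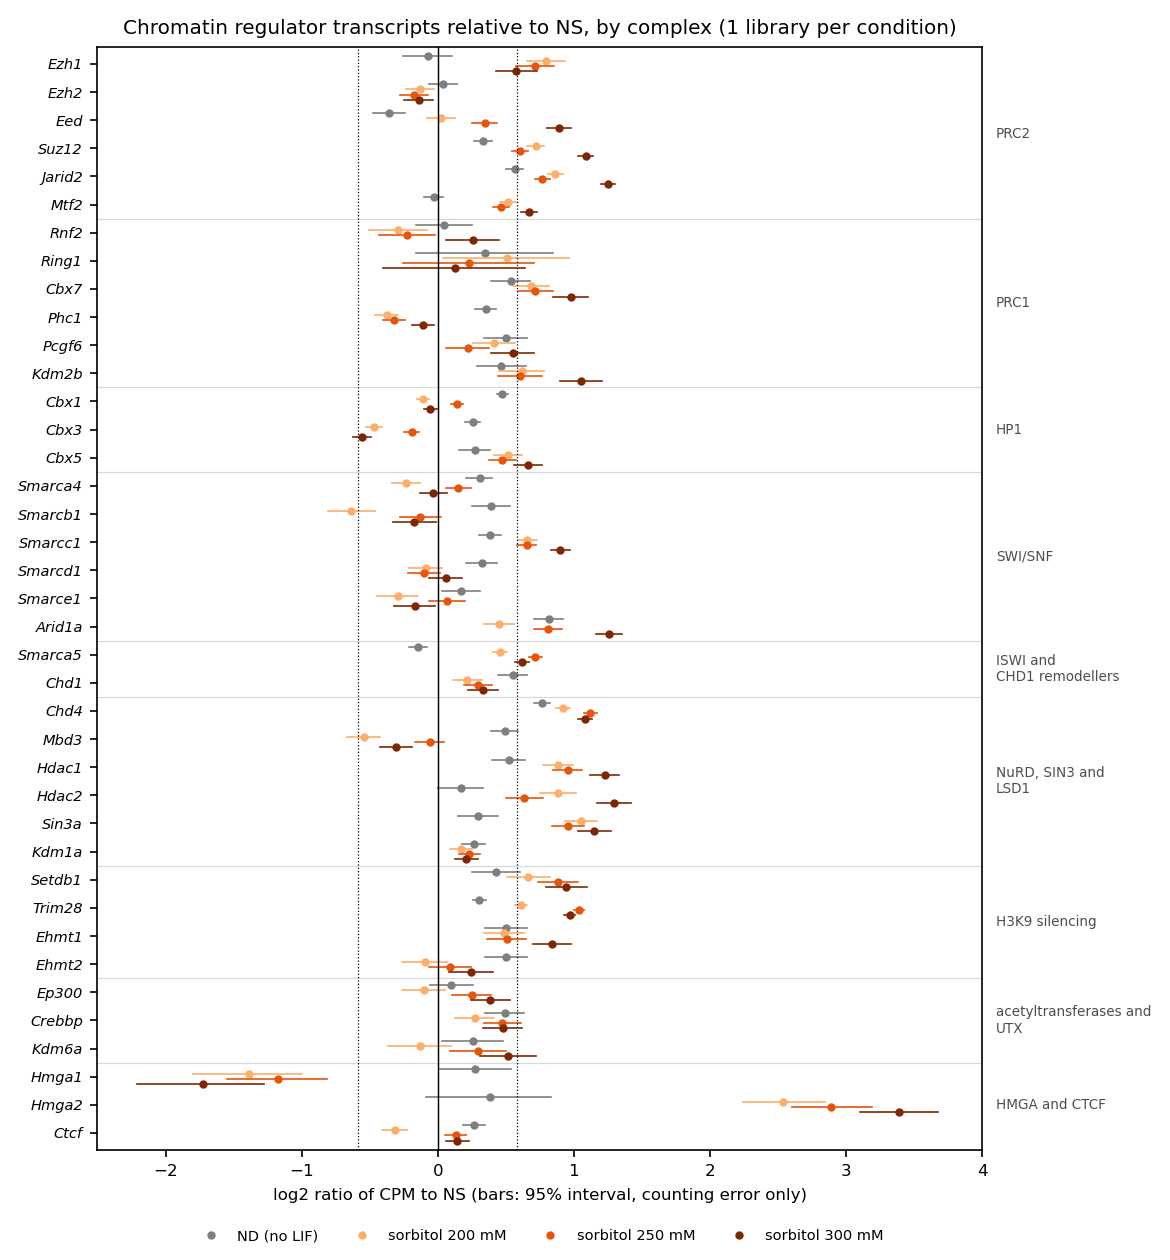
Log2 ratio of CPM to NS (x axis) for each of the 39 members (y axis, grouped by complex) in ND and at 200, 250 and 300 mM sorbitol, with exact conditional 95% intervals as bars and dotted lines at 1.5-fold. Hmga2 lies farthest to the right at all 3 doses and Hmga1 farthest to the left, and within PRC2 the points of Ezh2 stay near 0 while those of Suz12 and Jarid2 lie to the right.

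In PRC2, 3 of 6 members were higher than in NS at 200 and 250 mM and 4 at 300 mM, beside 26.8%, 26.5% and 32.8% of all genes. With median-of-ratios scaling the counts were 2, 0 and 3, beside 19.4%, 16.8% and 20.6% of all genes. The subunits differed among themselves. Ezh1 and Ezh2 are the alternative methyltransferases of the complex, and with sorbitol their levels lay on opposite sides of NS. Ezh1 stood at 45.2 CPM in NS, 42.9 in ND and 78.3, 74.0 and 67.4 CPM at 200, 250 and 300 mM. It was 1.73-fold above NS at 200 mM, 1.64-fold at 250 mM and 1.49-fold at 300 mM, just short of the threshold. The interval of each dose step includes no difference. On the median-of-ratios scale Ezh1 was past 1.5-fold at 200 mM alone, with a log2 ratio of 0.508 at 250 mM. Ezh2 lay between 114 and 133 CPM in all 5 libraries, with 129 in NS and 117 at 300 mM. Suz12 (chromosome 11, 79993106 to 80034123 in GRCm38), the scaffold on which the complex assembles, stood at 252 CPM in NS, 318 in ND and 415, 383 and 535 CPM at the 3 doses. Its log2 ratio to NS at 300 mM was 1.09 (95% interval 1.03 to 1.14). Jarid2 (chromosome 13, 44729474 to 44921643), an accessory subunit that helps bring the complex to its targets, stood at 285 CPM in NS, 422 in ND and 519, 485.5 and 679 CPM with sorbitol. It lay above NS in all 4 other libraries, by 1.48-fold in ND and 2.38-fold at 300 mM.

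Eed, which binds the methyl mark that the complex makes, followed another course. It stood at 121 CPM in NS, 94.2 in ND and 123, 153 and 224 CPM at 200, 250 and 300 mM. The level was thus lowest without LIF, level with NS at 200 mM and 1.86-fold above it at 300 mM. Mtf2, a Polycomb-like protein that binds unmethylated CpG-rich DNA, stood at 278, 272, 398, 384 and 443 CPM in the order NS, ND, 200, 250 and 300 mM. It passed 1.5-fold only at 300 mM, with 1.59-fold, and did not on the median-of-ratios scale, where its log2 ratio was 0.42. Suz12 and Jarid2 were past 1.5-fold at 200 and 250 mM on the CPM scale, but on the other scale Suz12 had log2 ratios of 0.56 and 0.40 there and Jarid2 of 0.71 and 0.56, so that Jarid2 at 200 mM alone was past it.

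A ratio of UMIs of 2 genes within a library does not depend on how libraries are scaled. The gene pairs given here and below were chosen after their values were seen, and they are compared between libraries, not between genes. Suz12 had 1.96 UMIs per UMI of Ezh2 in NS (95% interval 1.87 to 2.05), 2.40 in ND, and 3.53, 3.35 and 4.58 (4.28 to 4.92) at the 3 doses. Jarid2 per Ezh2 was 2.22 in NS, 3.19 in ND and 4.41, 4.25 and 5.82 with sorbitol, and Ezh1 per Ezh2 was 0.351, 0.324, 0.666, 0.648 and 0.578. Eed per Ezh2 was 0.938 in NS, 0.711 in ND and 1.04, 1.34 and 1.92 with sorbitol. In the sorbitol libraries the messages of Suz12, Jarid2 and Ezh1 were therefore more abundant relative to Ezh2 than in NS, and that of Eed from 250 mM on.

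Other PRC2 genes, from a list of 7 further subunits, included Epop and Phf19, which had opposite patterns. Epop, a subunit of the Mtf2-containing form of the complex, stood at 175 CPM in NS, 145 in ND and 324, 435 and 549 CPM at 200, 250 and 300 mM. Phf19, a relative of Mtf2, stood at 11.1 CPM in NS, 23.5 in ND and 4.88, 4.61 and 3.26 CPM with sorbitol. Epop was thus lower and Phf19 higher without LIF, and the reverse held at every sorbitol dose. The ratio of Epop to Phf19 UMIs was 15.8 in NS, 6.18 in ND and 66.4, 94.4 and 169 with sorbitol. Aebp2, a subunit of the form of PRC2 that holds Jarid2, stood at 134, 132, 234.5, 305 and 343 CPM in the same order as before.

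In PRC1, 2 of 6 members, Cbx7 and Kdm2b, were higher than in NS at each dose on the CPM scale, beside 26.5% to 32.8% of all genes. After median-of-ratios scaling both were past the threshold at 300 mM alone, beside 20.6% of all genes. On that scale 0 of 6 were higher at 200 and 250 mM, beside 19.4% and 16.8%. Cbx7, the chromodomain subunit that reads the PRC2 mark in stem cells, stood at 52.8 CPM in NS, 76.5 in ND and 84.7, 86.8 and 103.8 CPM at the 3 doses, 1.97-fold above NS at the highest. Kdm2b, which brings a variant PRC1 to CpG islands, stood at 35.5 CPM in NS, 49.1 in ND and 54.4, 53.9 and 73.7 CPM with sorbitol, 2.08-fold above NS at 300 mM. Both lay above NS in every other library. Phc1, a polyhomeotic subunit, stood at 209 CPM in NS, 266 in ND and 161, 167 and 193 CPM with sorbitol, and was within 1.5-fold of NS throughout. Pcgf6, of the variant complex with MGA, stood between 43.4 CPM in NS and 63.6 at 300 mM, within 1.5-fold throughout.

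The 2 ubiquitin ligases of PRC1 stayed within 1.5-fold of NS in every library. Rnf2 stood at 32.1 CPM in NS, 33.1 in ND and 26.3, 27.4 and 38.4 CPM with sorbitol. Ring1 was close to the lower limit of measurement, with 4.96, 6.32, 7.05, 5.84 and 5.43 CPM, and its intervals in ND and at 250 and 300 mM include no difference. Among 19 other PRC1 genes, Rybp, which partners the ligase in variant complexes, stood at 64.4 CPM in NS, 65.0 in ND and 118, 129.0 and 146 CPM with sorbitol. Bcorl1 stood at 11.5, 9.11, 30.4, 29.6 and 26.2 CPM. Bcor, its paralogue and a subunit of the Kdm2b-containing form, had its highest level without LIF, at 45.3 CPM in ND against 18.7 in NS and 18.6 to 23.2 with sorbitol. L3mbtl2, of the Pcgf6-containing form, stood at 50.6, 87.7, 39.1, 66.3 and 63.9 CPM.

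HP1 proteins bind methylated H3K9, and their 3 genes split. Cbx1 stood at 648 CPM in NS, 900.3 in ND and 602, 714 and 624 CPM with sorbitol, so it was 1.39-fold above NS without LIF and near NS at every dose. Cbx3 stood at 414, 495, 299, 363 and 281 CPM, lower than NS at each sorbitol dose and 1.47-fold lower at 300 mM. On the median-of-ratios scale it passed the threshold at 200 and 300 mM, with log2 ratios of -0.63 and -0.81. Cbx5 stood at 93.6 CPM in NS, 113 in ND and 134, 130.1 and 148 CPM with sorbitol. The ratio of Cbx5 to Cbx3 UMIs was 0.226 in NS and 0.228 in ND, and 0.447, 0.359 and 0.526 with sorbitol, with no overlap between the 95% intervals of the sorbitol libraries and those of the other pair.

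SWI/SNF had 1 of 6 members higher than in NS at 200 mM and 2 at 250 and 300 mM, beside 26.8%, 26.5% and 32.8% of all genes. On the median-of-ratios scale the counts were 0, 1 and 2, beside 19.4%, 16.8% and 20.6%. At 200 mM 1 member was lower on each scale, beside 11.0% and 16.1% of all genes. Smarcc1, a core scaffold subunit, stood at 179 CPM in NS, 233 in ND and 282, 281 and 334 CPM at the 3 doses. On the median-of-ratios scale it was within 1.5-fold at 200 and 250 mM, with log2 ratios of 0.499 and 0.449. Arid1a, the DNA-binding subunit that defines the canonical form of the complex, stood at 82.1 CPM in NS, 145 in ND and 112, 144 and 197 CPM with sorbitol. It was 1.76-fold above NS in ND, 1.37-fold at 200 mM, 1.75-fold at 250 mM and 2.39-fold at 300 mM, so ND lay above the lowest dose. Smarcb1, another core subunit, stood at 58.3 CPM in NS, 76.5 in ND and 37.5, 53.3 and 51.7 CPM with sorbitol, and was 1.55-fold below NS at 200 mM alone.

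The ATPase gene Smarca4 and the subunit genes Smarcd1 and Smarce1 stayed within 1.5-fold of NS throughout. Smarca4 stood at 132.5 CPM in NS, 164 in ND and 113, 147 and 129.6 CPM with sorbitol. Arid1a per Smarca4 was 0.620 in NS, 0.882 in ND and 0.993, 0.978 and 1.52 with sorbitol. Smarcc1 per Smarcb1 was 3.07 in NS and 3.04 in ND, and 7.51, 5.27 and 6.45 with sorbitol. The members of this complex therefore differed in their balance with sorbitol while their median log2 ratio at 300 mM was 0.01. Among 21 other subunits, Bicral stood at 18.9, 20.5, 26.0, 31.2 and 40.04 CPM, Smarcc2, the paralogue of Smarcc1, at 11.5, 12.9, 15.2, 17.8 and 23.6 CPM, and Arid1b, the paralogue of Arid1a, at 11.8, 20.1, 17.3, 17.0 and 14.95 CPM. Ss18 was highest in ND, with 58.1 CPM against 37.4 in NS and 35.5 to 46.7 with sorbitol.

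Smarca5, the ISWI ATPase, stood at 368 CPM in NS, 333 in ND and 504, 605 and 565 CPM with sorbitol. Chd1, a remodeller tied to active transcription, stood at 95.1, 139, 111, 117 and 119.6 CPM. Smarca5 was thus lowest and Chd1 highest without LIF, and Smarca5 per Chd1 was 3.87 in NS, 2.39 in ND and 4.56, 5.18 and 4.73 with sorbitol. Of 10 other remodellers, 6 were higher and 0 lower than in NS at 300 mM, and 4 and 0 on the median-of-ratios scale. The shares of all genes that were higher are 32.8% and 20.6% on these scales. Ep400 stood at 65.6 CPM in NS, 81.8 in ND and 126, 122 and 142 CPM with sorbitol. Baz1a, a partner of Smarca5, stood at 29.3, 21.4, 59.99, 63.6 and 62.8 CPM. Chd7 was highest in ND, at 36.3 CPM against 22.9 in NS and 21.2 to 28.3 with sorbitol, and Bptf stood at 225, 325, 259, 354 and 384 CPM.

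The NuRD, SIN3 and LSD1 group had 4 of 6 members higher at each dose on the CPM scale, beside 26.5% to 32.8% of all genes. On the median-of-ratios scale the counts were 4, 3 and 4, beside 19.4%, 16.8% and 20.6% of all genes. Chd4 (chromosome 6, 125095981 to 125130591 in GRCm38), the ATPase of NuRD, stood at 309 CPM in NS, 525 in ND and 585, 670.5 and 654 CPM with sorbitol. It was the other member past 1.5-fold in ND beside Arid1a, at 1.70-fold. Hdac1 and Hdac2, the deacetylases shared by NuRD and SIN3, stood at 70.3 and 48.9 CPM in NS, and at 164.5 and 119.9 CPM at 300 mM. In ND and at 200 and 250 mM Hdac1 stood at 101, 129.9 and 136 CPM, and Hdac2 at 54.9, 90.2 and 75.9 CPM. Hdac2 at 300 mM was 1.58-fold above 250 mM, the only member past 1.5-fold at that dose step. Sin3a, the scaffold of the SIN3 complex, stood at 56.7 CPM in NS, 69.4 in ND and 118, 110.0 and 126 CPM with sorbitol.

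Mbd3, a structural subunit of NuRD, was within 1.5-fold of NS at every dose on the CPM scale. It stood at 112 CPM in NS, 157 in ND and 76.7, 107 and 90.3 CPM at the 3 doses, with a log2 ratio at 250 mM whose interval includes no difference (-0.16 to 0.05). After median-of-ratios scaling it was past the threshold at 200 mM alone, with -0.70. Chd4 per Mbd3 was 2.76 in NS, 3.34 in ND and 7.62, 6.26 and 7.24 with sorbitol, and Hdac1 per Mbd3 was 0.630 and 0.642 in NS and ND and 1.69, 1.27 and 1.82 with sorbitol. Sin3a per UMI of its paralogue Sin3b was 0.3004 in NS, 0.301 in ND and 0.909, 0.718 and 0.859 with sorbitol. Kdm1a, the LSD1 demethylase, stood between 172 CPM in NS and 207 in ND and stayed within 1.202-fold of NS.

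Of 18 other genes of this group, 7 were higher and 1 lower than in NS at 300 mM, beside 32.8% and 10.6% of all genes. With median-of-ratios scaling 3 were higher and 2 lower, both below the shares of all genes, 20.6% and 18.4%. Chd3, the paralogue of Chd4, stood at 16.6 CPM in NS, 15.6 in ND and 35.8, 47.9 and 46.0 CPM with sorbitol. Sap18, a protein of the SIN3 complex, stood at 88.7, 51.7, 47.6, 46.9 and 42.5 CPM, below NS in all other libraries. In ND the largest ratios were those of Mta1, with 67.2 CPM against 33.2 in NS and 31.7 to 37.5 with sorbitol, and Cdk2ap1, with 91.5 CPM against 46.6 in NS and 40.2 to 67.2 with sorbitol.

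Chd4, Hdac1, Sin3a and Hmga2 were higher than in NS at all 3 doses on both scales, and Hmga1 was lower, so the promoters of these genes are shown where the table of promoters held them. Each runs from 250 bases before to 50 after the start, 5′ to 3′ in the gene's direction, from RefSeq (GRCm38.p6). Capitals mark GGGCGG, the GC box that Sp1-type factors bind, and CCAAT, the core of the NF-Y element, on either strand. The Chd4 stretch is chr6:125095731-125096030 on the plus strand, with 57.0% G or C, and Sin3a is chr9:57071790-57072089 on the plus strand, with 50%.
Chd4: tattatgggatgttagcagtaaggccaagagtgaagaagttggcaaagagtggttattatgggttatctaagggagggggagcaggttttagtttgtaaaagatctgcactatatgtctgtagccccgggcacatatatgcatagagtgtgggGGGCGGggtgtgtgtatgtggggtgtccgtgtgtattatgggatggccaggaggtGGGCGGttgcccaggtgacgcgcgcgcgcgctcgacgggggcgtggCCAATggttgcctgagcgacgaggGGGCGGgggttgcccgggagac
Sin3a: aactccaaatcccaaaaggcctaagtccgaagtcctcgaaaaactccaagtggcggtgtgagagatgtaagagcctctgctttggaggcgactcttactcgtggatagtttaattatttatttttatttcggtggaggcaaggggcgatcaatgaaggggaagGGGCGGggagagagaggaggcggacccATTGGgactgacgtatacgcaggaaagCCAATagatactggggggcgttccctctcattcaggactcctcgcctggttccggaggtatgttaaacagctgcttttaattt
The Chd4 window held 3 GC boxes and 1 CCAAT, and the Sin3a window 1 GC box and 2 CCAAT. A match of letters is a description and not evidence of binding.

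In the H3K9 silencing group, Trim28 and Setdb1 were higher than in NS at all 3 doses on the CPM scale. Trim28, the corepressor that zinc finger proteins bring to retroelements, stood at 523 CPM in NS, 646 in ND and 799, 1072 and 1023 CPM with sorbitol. Setdb1, the methyltransferase it recruits, stood at 37.8, 50.9, 59.9, 69.7 and 72.7 CPM. At 200 mM both were within 1.5-fold on the median-of-ratios scale, with log2 ratios of 0.45 and 0.51. Ehmt1 and Ehmt2 code for the partner methyltransferases GLP and G9a. Ehmt1 stood at 47.2, 66.8, 66.2, 67.0 and 84.4 CPM and passed 1.5-fold at 300 mM alone, with 1.79-fold, while Ehmt2 stood at 47.8, 67.7, 44.7, 50.8 and 56.6 CPM and passed it nowhere. Setdb1 per Ehmt2 was 0.791 in NS, 0.751 in ND and 1.34, 1.37 and 1.29 with sorbitol.

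Of 12 other genes of this group, 8 were higher and 0 lower than in NS at 300 mM, where 32.8% and 10.6% of all genes were. With median-of-ratios scaling 3 were higher and 0 lower, near the 20.6% of all genes that were higher. Tasor, a subunit of the HUSH silencing complex, stood at 35.2 CPM in NS, 53.6 in ND and 63.8, 71.4 and 87.8 CPM with sorbitol. Atf7ip, the partner that stabilises SETDB1, stood at 35.1, 66.0, 57.8, 61.0 and 77.9 CPM. Both lay above NS by more than 1.5-fold in all 4 other libraries on the CPM scale.

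The acetyltransferases and UTX had 0 of 3 members past 1.5-fold in any library. Of all genes, 26.5% to 32.8% were higher and 8.69% to 11.0% lower with sorbitol, and 10.0% and 7.07% in ND. Crebbp stood at 53.6 CPM in NS, 75.4 in ND and 64.7, 74.4 and 74.5 CPM with sorbitol. Its paralogue Ep300 stood at 53.1, 56.9, 49.5, 63.1 and 69.5 CPM. Kdm6a, the UTX demethylase that removes the PRC2 mark, stood at 25.3, 30.2, 23.1, 31.1 and 36.2 CPM. Each of the 3 stood higher at each dose than at the dose before, but for all 3 the interval from 250 to 300 mM includes no difference. On the median-of-ratios scale Crebbp was lower at 300 than at 250 mM, with a log2 ratio of -0.045. Among 18 other genes of this group, 11 were higher and 1 was lower than in NS at 300 mM, beside 32.8% and 10.6% of all genes. Median-of-ratios scaling gave 6 higher and 1 lower, beside 20.6% and 18.4%. Kdm6b, the other H3K27 demethylase, stood at 57.2 CPM in NS, 56.2 in ND and 135, 130.4 and 129.9 CPM with sorbitol, 2.27-fold above NS at 300 mM. Kat2b stood at 19.4, 32.4, 35.3, 34.0 and 39.6 CPM, and the H3K4 methyltransferase gene Kmt2d at 16.1, 23.8, 22.4, 25.2 and 24.2 CPM.

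**Figure D2:**
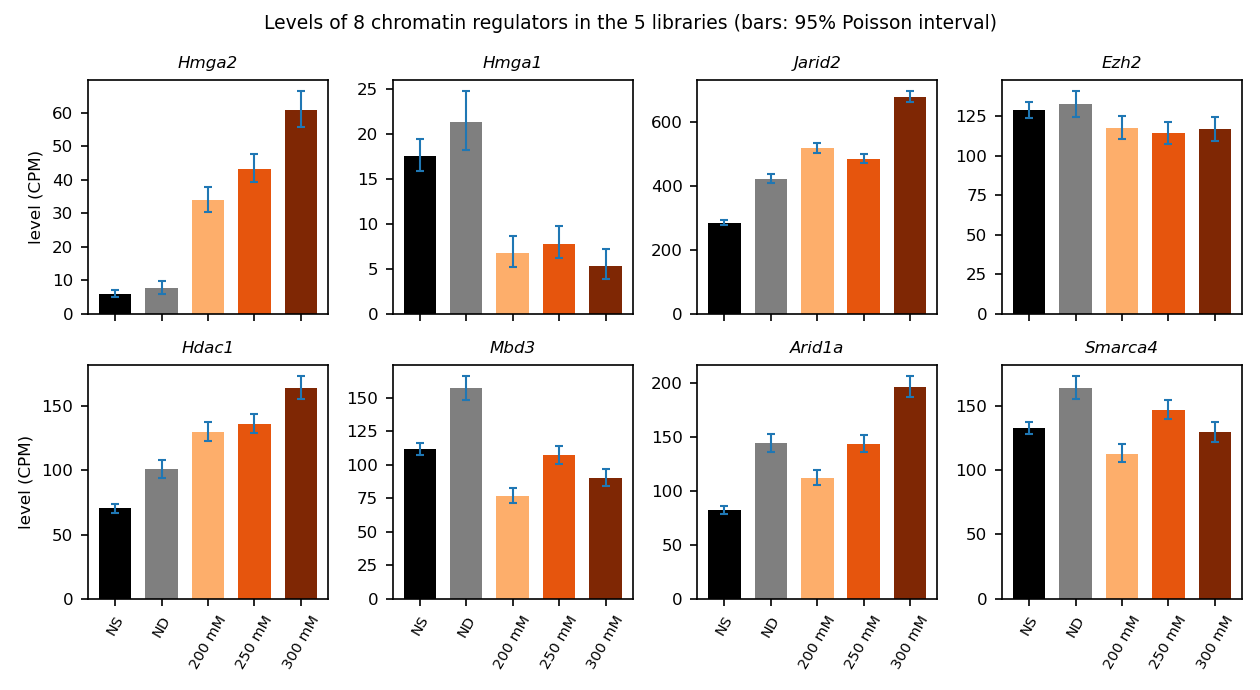
Level in CPM (y axis, from 0) of 8 members in NS, ND and at 200, 250 and 300 mM sorbitol (x axis), with exact Poisson 95% intervals as error bars. Hmga2 goes from 5.82 CPM in NS to 60.9 CPM at 300 mM while Hmga1 goes from 17.6 to 5.31 CPM and Ezh2 stays between 114 and 133 CPM.

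Hmga1 and Hmga2 code for AT-hook proteins that bend AT-rich DNA, and with sorbitol they had the most extreme ratios of the 39 members, in opposite directions. Hmga2 (ENSMUSG00000056758, chromosome 10, 120361275 to 120476469 in GRCm38, minus strand) stood at 5.82 CPM in NS (129 UMIs, 95% interval 4.86 to 6.92), 7.59 in ND and 33.9, 43.2 and 60.9 CPM with sorbitol. It was 5.81-fold, 7.42-fold and 10.5-fold above NS at 200, 250 and 300 mM, and the log2 ratio at 300 mM was 3.39 (95% interval 3.11 to 3.68). The ratio of ND to NS had an interval that includes no difference, -0.08 to 0.83 on the log2 scale. Hmga1 (ENSMUSG00000046711, chromosome 17, 27556497 to 27563674, plus strand) stood at 17.6 CPM in NS, 21.3 in ND and 6.73, 7.78 and 5.31 CPM with sorbitol, 2.61-fold, 2.26-fold and 3.31-fold below NS.

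The UMIs of Hmga2 per UMI of Hmga1 were 0.332 in NS and 0.357 in ND, and 5.03, 5.55 and 11.5 with sorbitol. The sorbitol libraries thus had more Hmga2 than Hmga1 UMIs and the other libraries fewer. Hmga1 has a near-identical copy, Hmga1b, listed as a gene of its own, so reads of both may have been divided between them. With both summed, NS had 25.2 CPM, ND 32.8 CPM, and the sorbitol libraries 12.5, 13.6 and 13.2 CPM, and the log2 ratio at 300 mM was -0.94 in place of -1.73. Ctcf, the insulator protein that anchors chromatin loops, stood at 183, 219.7, 147, 200.3 and 202 CPM and stayed within 1.5-fold.

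The promoters of the HMGA pair are shown because these genes differed most between libraries. Hmga2 is on the minus strand at chr10:120476420-120476719 with 57.7% G or C, and Hmga1 on the plus strand at chr17:27556324-27556623 with 74.0%, both from RefSeq (GRCm38.p6), with the same motifs in capitals.
Hmga2: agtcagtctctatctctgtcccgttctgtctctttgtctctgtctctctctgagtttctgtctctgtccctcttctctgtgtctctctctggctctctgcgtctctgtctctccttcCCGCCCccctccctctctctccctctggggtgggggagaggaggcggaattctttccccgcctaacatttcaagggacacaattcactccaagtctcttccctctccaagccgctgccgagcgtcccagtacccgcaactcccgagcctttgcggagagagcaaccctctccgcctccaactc
Hmga1: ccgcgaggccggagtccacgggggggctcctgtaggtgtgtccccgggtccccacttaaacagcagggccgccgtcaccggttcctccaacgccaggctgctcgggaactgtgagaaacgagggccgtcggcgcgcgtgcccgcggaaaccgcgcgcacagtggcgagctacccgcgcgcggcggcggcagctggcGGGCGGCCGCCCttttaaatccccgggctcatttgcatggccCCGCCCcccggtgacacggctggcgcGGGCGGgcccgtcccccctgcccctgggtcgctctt
The Hmga2 window held 1 GC box, and the Hmga1 window held 4, of which 1 pair lies side by side on opposite strands. Neither held CCAAT.

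Of 13 other genes grouped with HMGA and CTCF, 3 were higher and 2 lower than in NS at 300 mM, beside 32.8% and 10.6% of all genes. On the median-of-ratios scale the counts were 2 and 4, beside 20.6% and 18.4%. Hmgn2, a nucleosome-binding protein, stood at 144 CPM in NS, 216 in ND and 58.4, 56.1 and 57.2 CPM with sorbitol, so it was higher without LIF and lower at every dose. The cohesin release factor Wapl stood at 119, 126, 187.5, 193 and 219.6 CPM, and the cohesin subunit Stag2 was highest in ND, at 38.5 CPM against 20.2 in NS and 24.2 to 28.9 with sorbitol.

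Promoters were found in RefSeq's table for 36 of the 39 members, 48 promoters in all. GGGCGG stood on either strand in 83.3% of them, beside 35.7% of all 32851 promoters of that length. The 32851 were not limited to genes expressed in these libraries, so the contrast is not with expressed genes. CCAAT stood in 35.4% of the member promoters and 37.4% of all, and TATAAA in 4.17% and 13.6%. The other elements searched were TGACGTCA, in 0% and 1.79%, CACGTG, in 8.33% and 7.15%, and TTCNNNGAA, in 4.17% and 8.30%. The tonicity-responsive element, bound by the osmotic stress factor NFAT5, was matched in 2.08% of member promoters, which is that of Setdb1 alone, and in 5.28% of all.

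**Figure D3:**
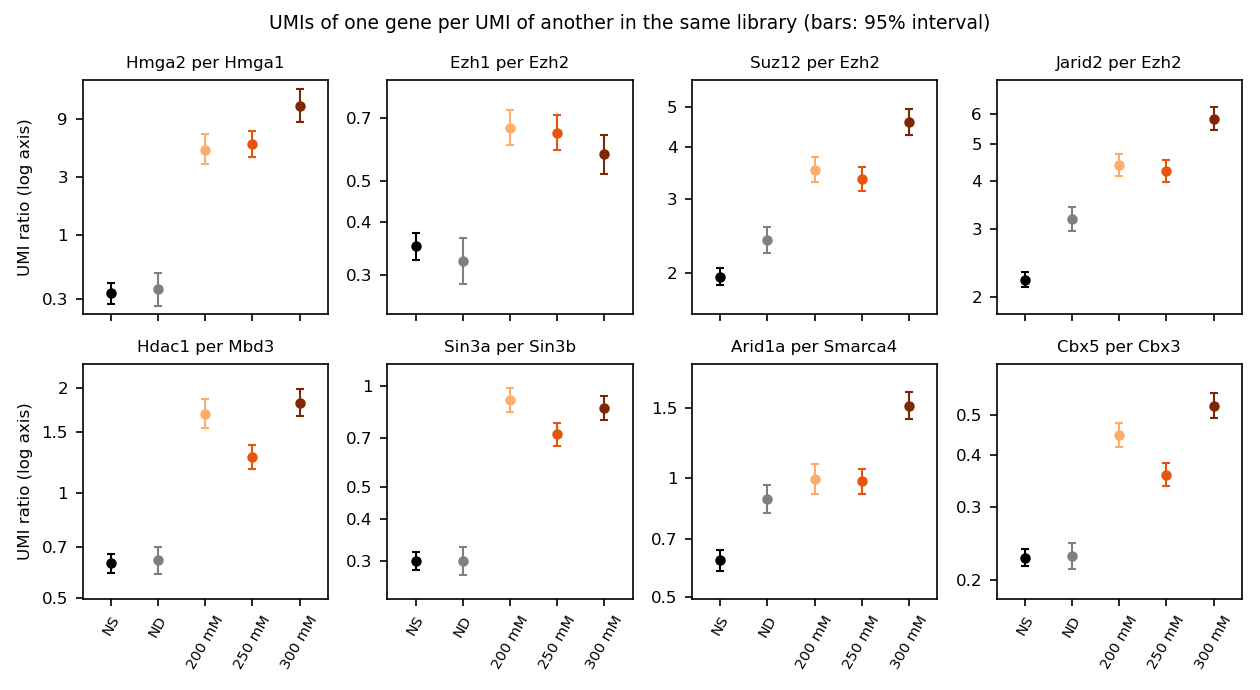
UMIs of one gene per UMI of another in the same library (y axis, log scale) for 8 pairs of members or paralogues in NS, ND and at 200, 250 and 300 mM sorbitol (x axis), with exact 95% intervals as bars. In each panel the 3 sorbitol points lie above NS, and for Hmga2 per Hmga1 they go from 5.03 to 11.5 against 0.332 in NS.

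Across the doses, 12 members were at least 1.5-fold above NS at each of 200, 250 and 300 mM, beside 18.0% of all 10366 genes measured in all 3 comparisons with NS, and 1 was below, beside 5.79%. The 12 were Suz12, Jarid2, Cbx7, Kdm2b, Smarcc1, Chd4, Hdac1, Hdac2, Sin3a, Setdb1, Trim28 and Hmga2. On the median-of-ratios scale 4 of them, Chd4, Hdac1, Sin3a and Hmga2, were past the threshold at each dose, beside 11.2% of all genes, and Hmga1 was below, beside 10.2%. The levels of 15 members went up at both dose steps, beside 25.2% of all genes, and those of 2, Ezh1 and Ring1, went down at both, beside 12.6%. Of the 15, only Eed, Arid1a and Hmga2 had intervals that exclude no difference at both steps. For Chd1 and Ehmt2 the intervals of both steps include it, as they do for Ezh1 and Ring1. On the median-of-ratios scale 10 members went up at both steps, beside 17.5% of all genes, and 3 went down, with Ezh2 added, beside 18.5%. Steps between doses were small: from 200 to 250 mM 0 members differed by 1.5-fold, beside 3.57% of all genes higher and 3.42% lower, and from 250 to 300 mM only Hdac2 did, beside 3.51% higher and 2.18% lower. On the median-of-ratios scale 0 members differed from 200 to 250 mM, beside 2.73% and 4.38% of all genes, and from 250 to 300 mM Hdac2 was higher and Hmga1 lower, beside 2.62% and 2.90%.

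The comparison of 300 mM sorbitol with ND sets side by side 2 libraries of similar depth. In it 12 members were higher and 3 lower at 300 mM, beside 27.9% and 11.4% of all genes. PRC2 held 5 of the 12: Ezh1, Eed, Suz12, Jarid2 and Mtf2, with Eed at a log2 ratio of 1.25. The others were Kdm2b, Smarca5, Hdac1, Hdac2, Sin3a, Trim28 and Hmga2, and the 3 lower members were Cbx3, Mbd3 and Hmga1. On the median-of-ratios scale 6 were higher and 6 lower, beside 20.5% and 16.8% of all genes, with Phc1, Cbx1 and Smarcb1 joining the lower side. Of PRC2, Eed and Suz12 were still past the threshold, while Ezh1, Jarid2 and Mtf2 had log2 ratios of 0.49, 0.52 and 0.54 and were not. SWI/SNF had 0 of 6 members past the threshold on the CPM scale. This comparison and that with NS share the 300 mM library.

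**Figure D4:**
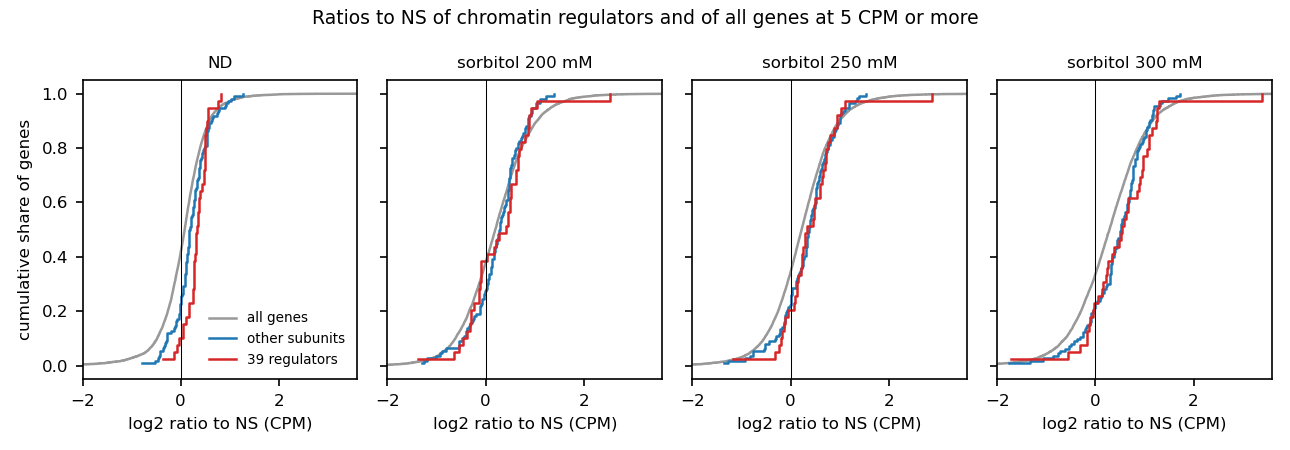
Cumulative share of genes (y axis) by log2 ratio of CPM to NS (x axis) for the 39 members, the other subunits of their complexes and all genes with at least 5 CPM, in ND and at the 3 sorbitol doses. The member curve lies to the right of that for all genes over most of its range in ND and at 300 mM, with medians of 0.55 and 0.29 at 300 mM, and crosses it at 200 mM.

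The other subunits of the same complexes, 118 genes found of 119 listed, are given for comparison. At 300 mM 51 were higher and 7 lower than in NS, of 113 measured, with a median log2 ratio of 0.52. In ND 13 were higher and 1 lower of 110. As shares these are 45.1% and 11.8% higher, where 32.8% and 10.0% of all genes were. The lower calls were 6.19% and 0.909%, beside 10.6% and 7.07% of all genes. On the median-of-ratios scale the counts at 300 mM were 27 and 11, and in ND 9 and 2. The shares of higher calls were then 23.9% and 8.18%, near the 20.6% and 7.32% of all genes. Those of lower calls were 9.73% and 1.82%, beside 18.4% and 9.29%.

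At the low counts left after thinning, the members' UMIs were spread over a library's barcodes nearly as random sampling spreads them. Each kept barcode was thinned to 500 UMIs, so that depth was equal. A kept barcode then held UMIs of a median of 2 members in NS, 3 in ND, 3 at 200 and 250 mM and 4 at 300 mM, and 6.44%, 3.04%, 3.47%, 2.49% and 1.62% of barcodes held none. Trim28 had a UMI in 22.5% of thinned barcodes in NS (67.3% before thinning), 27.4% in ND (42.0%) and 32.8%, 40.8% and 40.1% with sorbitol (51.4%, 63.7% and 56.5%). Hmga2 had one in 0.26% in NS (exact binomial interval 0.17% to 0.381%), 0.314% in ND and 1.51%, 2.22% and 3.02% (2.69% to 3.37%) with sorbitol, and in 1.24%, 0.639%, 3.07%, 4.15% and 4.99% before thinning. The libraries hold no cell type known to lack these genes, so the share that free RNA gives was not measured. The ratio of variance to mean over barcodes, which is 1 where UMIs fall at random, was 0.969 to 1.07 over the 195 values of members and libraries, with a median of 1.0. For the summed members it was 1.01 to 1.04, and for a list of 24 mitosis genes it was 1.08 to 1.15. Thinning and low counts both draw this ratio toward 1, so it cannot show whether cells differed in these genes.

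The barcodes of a library could be ordered only weakly by cell cycle. In each library the 10% of barcodes with most UMIs of the mitosis list were set against the 10% with fewest. Since 17.4% to 22.1% of barcodes had 0 of these UMIs after thinning, those with fewest were taken among ties by barcode order. Of the 28 members at 50 CPM or more, 1 was higher in the mitosis-rich barcodes of all 5 libraries, beside 2.77% of all 2493 genes, and 0 were lower, beside 4.29%. That gene was Mtf2, with log2 ratios of 0.21, 0.31, 0.18, 0.09 and 0.19 in NS, ND, 200, 250 and 300 mM, and each of its 95% intervals includes no difference. This split is too coarse to say whether member levels go with the cell cycle. The summed mitosis list stood at 3783 CPM in NS, 3643 in ND and 3135 to 3227 with sorbitol, and its part in the member values was not tested.

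The members' ratios went with the length of their genes, as did those of all genes. Spearman's rho between the genomic span of a gene and its log2 ratio at 300 mM to NS was 0.480 over the 39 members and 0.282 over 10667 genes, which share the same libraries and are not replicates. At 200 and 250 mM it was 0.351 and 0.452 over the members, and in ND 0.126. The 14 members among the longest 25% of genes, of 54.0 kb or more, had a median log2 ratio of 0.87 at 300 mM, while the longest 25% of all genes had 0.55. The 3 members among the shortest 25%, Ring1, Mbd3 and Hmga1, had a median of -0.31, and the shortest 25% of all genes had 0.003. Jarid2 spans 192 kb of chromosome 13 and Hmga2 115 kb of chromosome 10, whereas Hmga1 spans 7.18 kb of chromosome 17 and Mbd3 7.01 kb of chromosome 10. The nuclear transcript Malat1 stood at 14103 CPM in NS, 12548 in ND and 22948, 22155 and 16622 CPM with sorbitol, and Neat1 at 181, 130.3, 376, 305 and 288 CPM. The part of gene length or nuclear RNA in the member values was not tested.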

How the data were processed

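UMIs were measured in 5 libraries, 1 per condition. The deposited matrices hold raw UMI counts per gene and barcode, and the writing software, per the file headers, was version 6.0.1 of Cell Ranger. Per the submitters' processing notes, which state no roles, R 4.1.2, Seurat 4.1.1 and the mm10 build were also used. Nothing on aligner settings, annotation or strand is given in the sources used here, and overlapping genes and near-identical copies are uncertain. The labels' protocol names Trizol and a Lexogen 3' kit, although the matrices are droplet matrices.

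A barcode was kept if it had 500 genes or more and no more than 20% of its UMIs were mitochondrial, and no doublet caller was run. UMIs were summed per library and scaled to CPM. Ratios have exact conditional binomial 95% intervals, levels exact Poisson and shares exact Clopper-Pearson intervals. Counts under 3 UMIs would be set to a floor of 3. Members at 5 CPM or more in either library counted at 1.5-fold, without a test. The scripts were tested on simulated data. The naming rule asked for levels in all libraries for members past 1.5-fold and for the highest and lowest of each complex, other members by range, and up to 2 other subunits per complex with the largest ratios in ND and at 300 mM among those at 20 CPM or more. Levels of some further members were added, and Sin3b, outside the rule, was chosen after its values were seen. Members and lists were chosen with earlier results of these data known. Gene positions come from GENCODE and promoters from RefSeq (GRCm38.p6). The alternatives were median-of-ratios scaling, a total without mitochondrial and ribosomal protein genes, every deposited barcode, leaving out the 5% of barcodes with most UMIs, thinning to 500 UMIs, other minimum levels and a 2-fold threshold. Python 3.11.15, numpy 2.4.6, scipy 1.17.1, pandas 2.3.3 and matplotlib 3.10.9 were used.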

Additional observations from a re-analysis of the deposited data

How the results depend on the processing

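Median-of-ratios scaling moved the most counts: members higher than in NS became 7 at 200 mM and 7 at 250 mM, members lower became 4 at 200 mM and 2 at 300 mM, and the median log2 ratios became 0.255, 0.140 and 0.299 at the 3 doses. For 300 mM against ND it gave 6 higher and 6 lower. Without mitochondrial and ribosomal protein genes in the total, 2 members were lower at 300 mM than in NS and 5 lower than in ND. Thinning to 500 UMIs left 1 member lower at 200 mM. A minimum of 20 CPM, which leaves out Ring1 and Hmga1 in comparisons where they are below it, gave 1, 0 and 0 lower at the 3 doses and a median of 0.463 at 250 mM. At 2-fold, 0 members were higher in ND and 2, 3 and 9 at the 3 doses, and 1 was lower at 200 mM. The shares of all genes were counted at 1.5-fold on the CPM and median-of-ratios scales only. Counts under the other settings, the 2-fold threshold included, therefore have no background to be read against. Of 52 ratios of named members past 1.5-fold, 17 were not past it under median-of-ratios scaling, 9 without mitochondrial and ribosomal protein genes, 7 after thinning, and 0 with every deposited barcode or without the 5% of barcodes with most UMIs. Among the 84 ratios of named members, 0 changed sign with a call under these 5 settings. The sum of Hmga1 and Hmga1b, chosen after seeing the data, stayed below NS with sorbitol, by less than Hmga1 alone. Its log2 ratios were -1.01, -0.89 and -0.94 at the 3 doses. Hmga1b alone stood at 7.63 CPM in NS and 5.75, 5.84 and 7.84 CPM at those doses. No paired analysis was possible because each condition has 1 library. With 1 library per condition no alternative tests the spread between cultures. Depth limits Ring1, Hmga1 and Hmga2 most, at under 10 CPM in at least 1 library.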

Other observations

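The Hox cluster genes, textbook targets of Polycomb silencing in stem cells, were low in every library, with 1 to 3 of them at 5 CPM or more. Their 39 genes summed to 39.5 CPM in NS, 13.9 in ND and 34.7, 38.6 and 49.6 CPM at 200, 250 and 300 mM sorbitol, with 35, 25, 31, 30 and 33 of them having a UMI. Hoxb9 stood at 9.66 CPM in NS, 5.57 in ND and 4.88, 10.3 and 14.6 CPM with sorbitol. Hoxb13 stood at 6.32, 0.506, 9.76, 7.27 and 6.995 CPM, and Hoxc13 at 3.16, 1.52, 4.45, 4.71 and 9.89 CPM. These 3 genes were picked after their values were seen. A further 40 developmental regulators known as Polycomb targets summed to 121 CPM in NS, 126 in ND and 95.8, 91.1 and 90.1 CPM with sorbitol. The Hox sum was thus lowest without LIF, and the sum of the other targets was lower with sorbitol than in NS or ND.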
